A study of Homo sapiens with 6 samples.

Results

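Replication-dependent histone genes encode the H1, H2A, H2B, H3 and H4 proteins that package newly made DNA. They were chosen here by symbol among protein-coding genes (H1-1 to H1-6 and the H2AC, H2BC, H3C and H4C series), with no use of measured values. The rule found 70 genes, of which 68 had a row among the 60676 genes of the tables, matched by Ensembl identifier. Of these, 55 passed a minimum mean of 1 FPKM (fragments per kilobase of gene, scaled to the library total) in either group and were tested among 13966 genes. H2AC18 and H2AC19 were not analysed here.

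RNA was sequenced from the human neuroblastoma line SK-N-BE, which turns towards a neuronal state under retinoic acid. All cells had differentiated for 1.5 days under 10 μM retinoic acid and had received small interfering RNAs (siRNAs), and no untreated or undifferentiated cells were compared. The control group (si-SCR, 3 libraries) received a scrambled siRNA and the other group (si-CyCoNP, 3 libraries) a pool of siRNAs against the long noncoding RNA CyCoNP. The labels do not say that the replicates came from separate cultures, so p-values measure the spread between these libraries, which may be technical.

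Transcription of these genes rises as cells enter S phase, under NPAT at nuclear histone locus bodies, and falls when replication ends. Their mRNAs are the main animal mRNAs without a poly(A) tail: they end in a conserved stem-loop that is bound by SLBP and cut with the help of the U7 small nuclear ribonucleoprotein. Total RNA libraries that are not selected for poly(A) hold these mRNAs, and cells that leave the cell cycle to differentiate make less of them.

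The stem-loop is shown because it is the shared end of these mRNAs and the feature that sets them apart from other genes. A stretch of 16 bases made of GG, any 2 bases, CTTTT, any base, AG, any 2 bases and CC was searched on the sense strand of the GRCh38 genome (GENCODE 44) within 150 bases after the stop codon. It occurred in 66 of the 70 members (94.3%) and in 4 of 19854 other protein-coding genes (0.0201%), which were H2AX, H3-4, H3-7 and TIPARP. The members without this stretch in the window were H2BC10, H2BC12L, H3C6 and H4C13. The forms are written 5′ to 3′ as DNA, with the loop in capitals:
H1-2, H2BC18 and H3C12: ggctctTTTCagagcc
H4C4 and H4C5: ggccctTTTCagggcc
H2BC12 and H3C8: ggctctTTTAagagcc
H4C9: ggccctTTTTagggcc
H2AC11: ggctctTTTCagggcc
H2AC20: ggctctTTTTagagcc
H2AC15: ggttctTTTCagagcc
The first form was found in 40 members of the H1, H2A, H2B and H3 classes, the second in 10 H4 genes, the third in 9 members and the fourth in 4 H4 genes, while the last 3 forms had 1 member each. The stem of the H4 genes thus differed from that of nearly all other members, and the loop ended in C, A or T. The copy in H1-2 lay at chr6:26055744-26055759 on the minus strand, 28 bases after the stop codon, and that in H4C9 at chr6:27139654-27139669 on the plus strand, 34 bases after it.

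The start sites carried other shared letters, which are shown for the H2B genes described below. RefSeq promoter windows on GRCh38.p14, from 250 bases before to 50 bases after each start, were at hand for 64 member symbols (68 windows, some symbols with more than 1). The octamer ATTTGCAT, the word read by POU factors such as POU2F1, stood on either strand in 39.7% of these windows and in 1.77% of all 35116. It was in 75% of H2B and 68.8% of H2A windows, in 7.69% of H3 windows and in 0 of the 6 H1 and 13 H4 windows. CCAAT, a word bound by NF-Y, was in 85.3% of member windows against 34.6% of all, but in 23.1% of H4 windows. TATAAA was in 66.2% against 11.5%. The octamer (in capitals) read as follows in 4 H2B genes:
H2BC14 at chr6:27814964-27814991 (+): tctactcctaATTTGCATaataacattt
H2BC18 at chr1:149812402-149812429 (-): gcgagtcttcATTTGCATacgggctcta
H2BC9 at chr6:26251555-26251582 (+): ttaagcacctATTTGCATaaaagaccta
H2BC12 at chr6:27146887-27146914 (-): tcttcaccttATTTGCATgagaggtcct
The copy of H2BC14 also lies in the window of its divergent neighbour H2AC14, on the opposite strand.

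The libraries held 3762009 to 4799407 counted fragments. The targeted gene, LINC02381 (chr12:54126019-54147485, +), had 14.9, 12.9 and 15.4 FPKM in si-SCR and 0.973, 1.65 and 0.676 FPKM in si-CyCoNP. This was a log2 fold change of -3.78 ± 0.19 (SE; edgeR quasi-likelihood test, adjusted p = 6.84e-14), so the labels and the libraries matched. All 12 markers of sympathetic neuroblastoma were expressed, and 9 of them fell while MYCN rose (edgeR, adjusted p under 0.05). Of all genes tested, 14.2% fell and 14.2% rose. With DESeq2 8 markers fell, and 8 to 10 fell when 1 library was left out. The summed level of the 12 markers was 8481.0 to 10210.5 CPM (counts scaled to a common library size after TMM normalisation) in si-SCR and 6495.4 to 6992.8 in si-CyCoNP. The 9 mesenchymal markers summed to 206 to 278 and 250 to 297 CPM, with COL1A2 and PRRX1 at 0 in every library. The 6 Schwann cell markers summed to 3.37 to 7.57 CPM in si-SCR and 18.5 to 30.8 CPM in si-CyCoNP. Only 1 of them was tested, and it rose (edgeR, adjusted p under 0.05). Of the others, SOX10 and CDH19 were at 0 in every library, and S100B and ERBB3 had means of 3.0 and 0.667 counts per library. The 5 leukocyte markers were at or below 0.553 CPM, with CD3E and LYZ at 0 in every library. The part of these markers in the histone results was not tested.

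One si-SCR library stood apart from the others of its group for the histone genes. Replicate 3 of si-SCR had the highest FPKM of the si-SCR libraries in 53 of the 55 tested members (96.4%), against 41.3% of all genes tested, and the highest of all 6 libraries in 22. Counts of calls and medians are given with and without replicate 3 of si-SCR where they move by over 1.5 times. Replicate 3 of si-CyCoNP also held the largest histone share of its group (0.911%, against 0.846% and 0.879%). Fits without replicate 3 of si-SCR keep that library, so they set it against the lower si-SCR libraries alone.

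The histone mRNAs as a whole took a similar share of the library in both groups. All 68 rows together, with low members kept, held 0.728%, 0.793% and 0.956% of the counts in si-SCR, against 0.846%, 0.879% and 0.911% in si-CyCoNP. The si-CyCoNP values lay inside the si-SCR range, and the means were 0.826% ± 0.117 and 0.879% ± 0.0321 (SD, n = 3), a log2 ratio of 0.09. With TMM scaling the ratio was 0.025, and without replicate 3 of si-SCR it was 0.21. In bulk RNA, the number of cells in S phase and the histone mRNA per cell cannot be told apart.

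By class, H2B genes took the largest share, with 0.234% ± 0.0368 of the counts in si-SCR and 0.256% ± 0.00621 in si-CyCoNP. H1 genes followed with 0.186% ± 0.0209 and 0.185% ± 0.00597, then H4 with 0.143% ± 0.0193 and 0.153% ± 0.0103, H2A with 0.135% ± 0.0228 and 0.147% ± 0.00588, and H3 with 0.127% ± 0.0181 and 0.137% ± 0.00459. In each class the difference between groups was smaller than the SD of si-SCR, which includes replicate 3. The log2 ratios were 0.128 (H2B), -0.007 (H1), 0.096 (H4), 0.118 (H2A) and 0.12 (H3). Without replicate 3 of si-SCR they were 0.257, 0.081, 0.211, 0.264 and 0.24. In H2A, H2B, H3 and H4 each si-CyCoNP share was then above the si-SCR shares that remained.

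The 40 DNA replication genes gave a second reading of S phase. Their summed level was 2994.0, 2978.9 and 3633.4 CPM in si-SCR and 3553.4, 3338.6 and 3757.5 CPM in si-CyCoNP. Replicate 3 was the highest of its group in both. The histone sum divided by this sum was 2.55, 2.77 and 2.65 in si-SCR, against 2.35, 2.57 and 2.41 in si-CyCoNP, ranges that overlap.

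**Figure D1:**
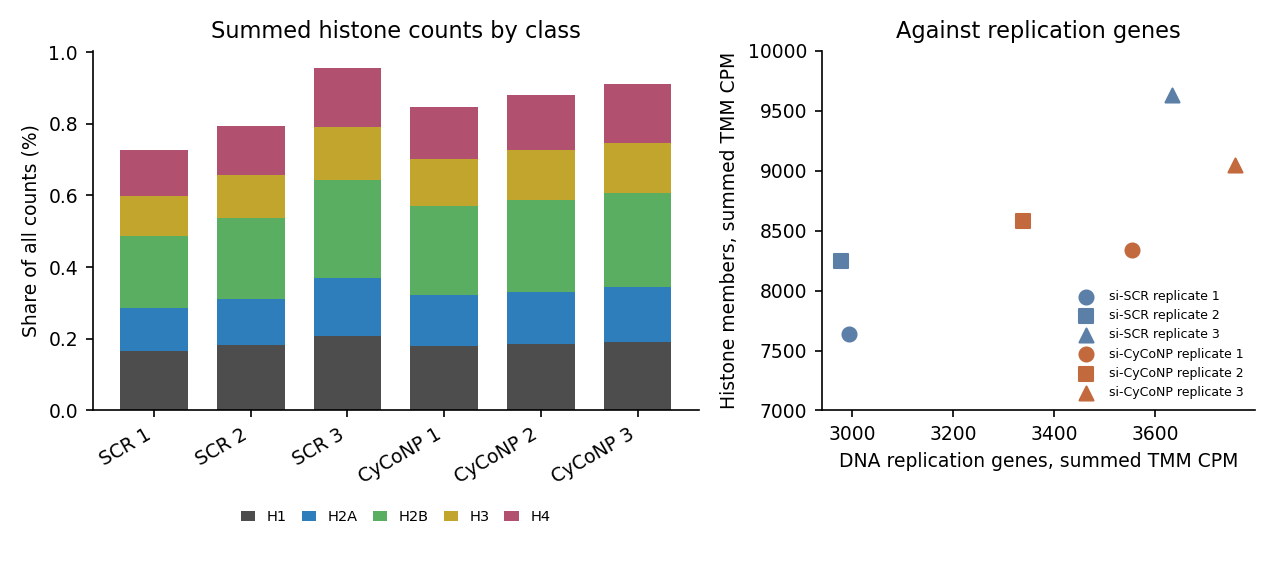
Left, share of all counts (%) held by the 68 histone rows in each library, stacked by class. Right, summed TMM CPM of the histone members against that of the 40 DNA replication genes, 1 point per library (both axes start above 0). The si-SCR bars range from 0.728% to 0.956% and enclose the si-CyCoNP bars, and replicate 3 of si-SCR has the highest histone sum.

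Single members moved little. Of the 55 tested, 3 rose (H2BC18, H3C12 and H2BC14) and 5 fell (H1-2, H3C6, H1-3, H4C9 and H2BC9) at an adjusted p under 0.05 (edgeR, adjusted over all genes tested), while 47 did not pass. This is 14.5% of the members, where 28.4% of all genes tested passed, 14.2% higher and 14.2% lower. The median log2 fold change was 0.054 (all genes 0.0053) and the median size 0.126 (all genes 0.311). Only 3 members were beyond 0.5 in size, 1 of them H1-6 with 3.17 counts per library, against 32.7% of all genes. These sizes depend on counts too, and the sets were not matched for them: 52 of the 55 members had at least 100 per library on average. With the further demand of a 2-fold change, 0 members were called by edgeR, by DESeq2 or in any of the 17 alternatives, and 0 were beyond 2-fold at an unadjusted p under 0.05, where 2.28% of all genes were called higher and 2.98% lower (5.26% together). In FPKM, the groups did not overlap for 6 members that were higher and 2 that were lower in si-CyCoNP (24.2% and 16.1% of all genes).

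These counts depended on the fit. DESeq2 called 2 higher and 3 lower, upper quartile scaling 3 and 3, and library totals alone 4 and 2. Without replicate 3 of si-SCR, 16 members rose and 3 fell (15.4% and 15.8% of all genes in that fit), and the median was 0.15 (all genes 0.004). The lower count was 3 without replicate 2 of si-SCR, and 2 without replicate 2 or replicate 3 of si-CyCoNP. The median of the members was -0.013 without replicate 1 of si-SCR, 0.003 without replicate 3 of si-CyCoNP and -0.027 with an offset for gene length and GC content.

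**Figure D2:**
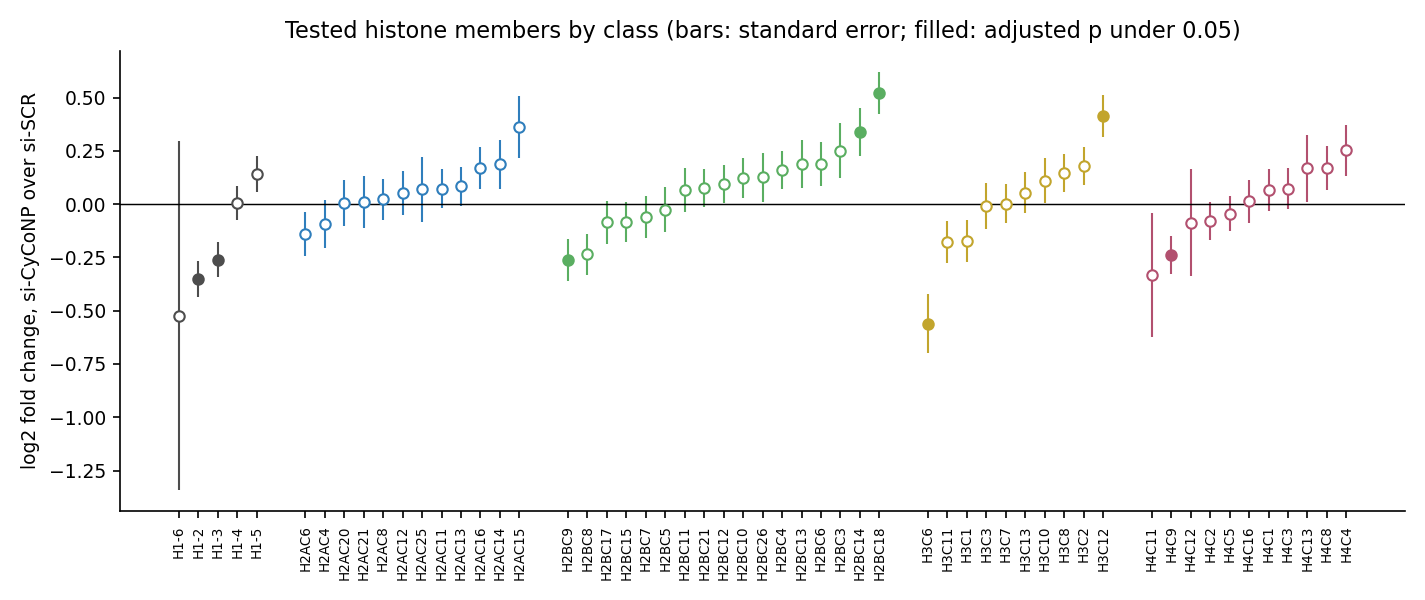
Log2 fold change (si-CyCoNP over si-SCR) of the 55 tested members, grouped by class and ordered by value, with the standard error of the edgeR fit as bars. Filled points are the 8 members with an adjusted p under 0.05, and the values run from -0.56 (H3C6) to 0.52 (H2BC18).

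The linker histones, which bind DNA between nucleosomes, differed among themselves: of 5 tested, 0 rose and 2 fell (edgeR; 2 had an unadjusted p under 0.05), with 1 fall left without replicate 2 of either group or replicate 3 of si-CyCoNP. H1-2 (ENSG00000187837, chr6:26055740-26056470, -) had 676, 775 and 884 FPKM in si-SCR and 613, 640 and 662 FPKM in si-CyCoNP. All 3 si-CyCoNP values were below the lowest si-SCR value, and the log2 fold change was -0.35 ± 0.084 (SE; edgeR, adjusted p = 0.00215). The call was lost only with limma on log2 FPKM (log2 fold change -0.28, adjusted p = 0.1 and 0.105 with pseudocounts of 1 and 0.1, in a range over the alternatives of 1.34e-05 to 0.105). H1-3 (chr6:26234212-26234987, -) had 342, 374 and 411 FPKM in si-SCR and 346, 318 and 321 FPKM in si-CyCoNP. The groups overlapped by 1 library, and the log2 fold change was -0.26 ± 0.083 (adjusted p = 0.0188, edgeR). It passed in 11 of 17 alternatives and was lost without replicate 2 of either group or replicate 3 of si-CyCoNP (adjusted p 0.00103 to 0.143 over the alternatives).

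H1-4 and H1-5 had more counts than any other member, 2549.3 and 2533.5 per library on average. H1-4 had 706, 754 and 819 FPKM in si-SCR and 744, 808 and 844 FPKM in si-CyCoNP, with a log2 fold change of 0.005 ± 0.078 (adjusted p = 0.974, edgeR). H1-5, with the highest mean FPKM of its class, had 693, 772 and 914 FPKM in si-SCR and 896, 914 and 938 FPKM in si-CyCoNP, a log2 fold change of 0.14 ± 0.083 (adjusted p = 0.224, edgeR). Without replicate 3 of si-SCR, H1-5 passed with a log2 fold change of 0.24 (adjusted p = 0.0114, edgeR). H1-6, a linker histone of the testis, had 3.17 counts per library and gives no usable value, and H1-1 was not tested.

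Shares within a class do not depend on how libraries are scaled. They were computed after the values above had been seen and are given without a test. H1-2 made up 26%, 27% and 27.2% of all H1 counts in si-SCR, against 21.9%, 22.1% and 22.2% in si-CyCoNP. H1-5 made up 28.3%, 28.5% and 29.9% in si-SCR, against 34%, 33.6% and 33.4% in si-CyCoNP. H1-3 made up 13.7%, 13.5% and 13.1% in si-SCR, against 12.8%, 11.4% and 11.2% in si-CyCoNP, groups that were apart by a narrow margin. H1-4 held 30.8% ± 1.15 and 32.4% ± 1.06 (SD, n = 3), with overlapping groups. For H1-2 and H1-5 the libraries of a group lay close together and the groups were apart, also for replicate 3 of si-SCR, although the summed H1 level was nearly the same. Shares add up to the whole class, so that a lower share of 1 gene raises those of the others.

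**Figure D3:**
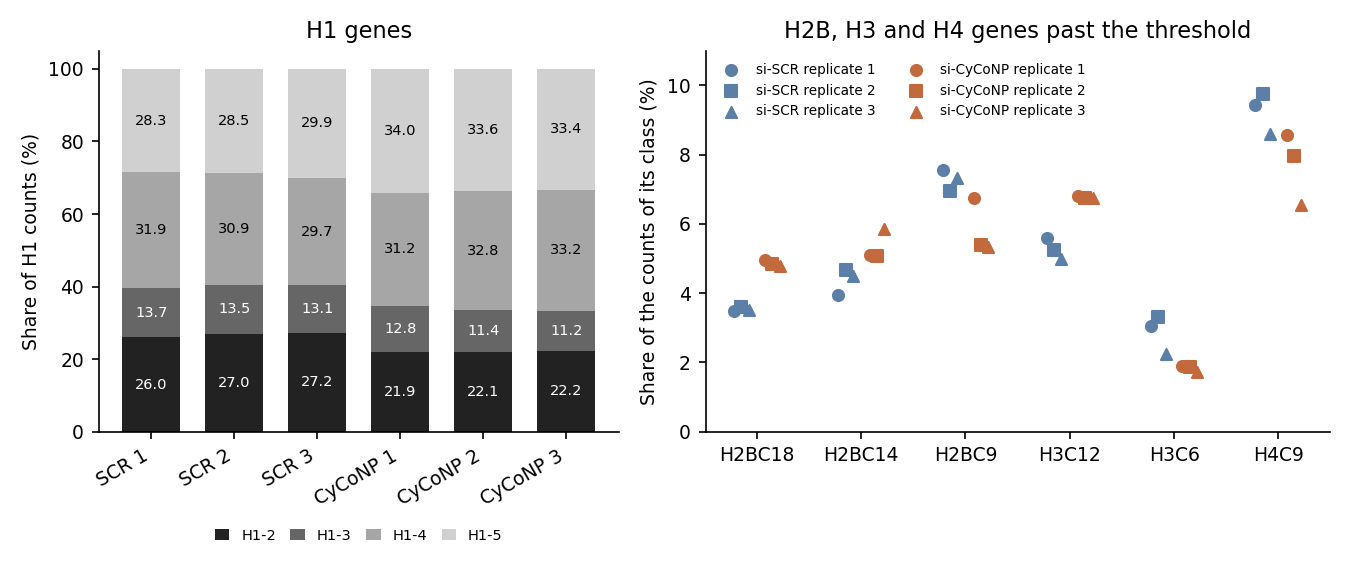
Left, share of the H1 counts (%) held by H1-2, H1-3, H1-4 and H1-5 in each library, with the value printed in each block. Right, share of the counts of its class held by the other 6 members past the threshold, 1 point per library. H1-2 holds 26% to 27.2% of the H1 counts in si-SCR and 21.9% to 22.2% in si-CyCoNP. For each gene on the right the groups do not overlap, but for H4C9 they nearly touch (8.59% in si-SCR and 8.58% in si-CyCoNP). The genes on the right were chosen by the threshold on the same counts, so their separation is no further test.

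Of the 17 tested H2B genes, whose protein pairs with H2A in the nucleosome, 2 rose and 1 fell, with a median of 0.096. In the fit without replicate 3 of si-SCR, 6 rose and 0 fell, and the median was 0.193. Without replicate 1 of si-SCR 1 rose and 2 fell (median 0.03), without replicate 3 of si-CyCoNP 1 rose and 0 fell, and without replicate 2 of si-CyCoNP 2 rose and 0 fell. H2BC18 (ENSG00000203814, chr1:149782689-149812373, -) had 22, 25.5 and 30.2 FPKM in si-SCR and 38.8, 39.0 and 39.2 FPKM in si-CyCoNP. The si-CyCoNP libraries were nearly equal and all above si-SCR, with a log2 fold change of 0.52 ± 0.099 (adjusted p = 0.000194, edgeR), past the threshold in 17 of 17 alternatives. Its share of the H2B counts was 3.48%, 3.61% and 3.51% in si-SCR, against 4.97%, 4.84% and 4.79% in si-CyCoNP. Its row is less certain than most. Counts and FPKM implied a gene length of 3196 bases where the GENCODE canonical transcript has 492, so that fragments outside the histone unit may have been counted, and 56.0% of the 100-base windows of that transcript occur once in the genome.

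H2BC14 (chr6:27815022-27815489, +) had 210, 278 and 325 FPKM in si-SCR and 334, 342 and 401 FPKM in si-CyCoNP. The groups were apart by a narrow margin, with a log2 fold change of 0.34 ± 0.113 (adjusted p = 0.0252, edgeR). It passed in 11 of 17 alternatives (adjusted p 2.47e-05 to 0.176) and was lost, among others, without replicate 1 of si-SCR, without replicate 3 of si-CyCoNP and in DESeq2 (adjusted p = 0.0543). H2BC9 (chr6:26251614-26252075, +) had 74.3, 76.1 and 97.8 FPKM in si-SCR and 81.6, 67.4 and 67.7 FPKM in si-CyCoNP. Its groups overlapped, its log2 fold change was -0.26 ± 0.0996 (adjusted p = 0.0499, edgeR), and it passed in 7 of 17 alternatives (adjusted p 0.00569 to 0.349). Without replicate 3 of si-SCR the value was -0.14 and it did not pass, nor without replicate 2 or replicate 3 of si-CyCoNP. H2BC12, the H2B gene with the highest FPKM, had 593, 634 and 774 FPKM in si-SCR and 699 to 789 FPKM in si-CyCoNP (log2 fold change 0.096 ± 0.089; edgeR, adjusted p = 0.46). The octamer shown above stood in the windows of H2BC14, H2BC18 and H2BC9, as it did in 75% of H2B windows. Its part in the values of these genes was not tested.

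Among the 12 tested H2A genes, 0 passed in edgeR or in DESeq2, and H2AC15 alone had an unadjusted p under 0.05 (log2 fold change 0.36; edgeR, adjusted p = 0.0638). Without replicate 3 of si-SCR, H2AC14 and H2AC15 rose, by log2 fold changes of 0.39 and 0.50. The median over the class was 0.06, and 0.182 in that fit, -0.018 without replicate 1 of si-SCR and 0.009 without replicate 3 of si-CyCoNP. H2AC13, which had the highest FPKM of the class, had 332, 395 and 452 FPKM in si-SCR and 423, 429 and 457 FPKM in si-CyCoNP, a log2 fold change of 0.084 ± 0.092 (adjusted p = 0.54, edgeR). Only 41.2% of its windows occur once in the genome, so that its level is understated where fragments with several positions are dropped.

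Of the 10 tested H3 genes, 1 rose and 1 fell, with a median of 0.028. With replicate 3 of si-SCR left out, 4 rose and 1 fell (median 0.107), and without replicate 1 of si-SCR 1 rose and 2 fell (median -0.023). H3C12 (ENSG00000197153, chr6:27890315-27893106, -) had 80.5, 82.0 and 94.7 FPKM in si-SCR and 116, 122 and 122 FPKM in si-CyCoNP. The groups were well apart, with a log2 fold change of 0.41 ± 0.098 (adjusted p = 0.00187, edgeR), past the threshold in 17 of 17 alternatives. Its implied length was 775 bases against a canonical transcript of 512, so that fragments outside the histone unit may have been counted here too. Its annotated exons overlap those of H2AC17 on the same strand by 346 bases, and H2AC17 had 0 counts in every library. H3C6 (ENSG00000274750, chr6:26224199-26227473, +) had 12.7, 15 and 12.3 FPKM in si-SCR and 9.41, 9.84 and 9.0 FPKM in si-CyCoNP. All si-CyCoNP values were below si-SCR, with the lowest log2 fold change of the members that passed, -0.56 ± 0.138 (adjusted p = 0.00274, edgeR), past the threshold in 17 of 17 alternatives. H3C6 is 1 of the 4 members without the stem-loop letters, its implied length was 2679 bases against a canonical transcript of 482, and it had 100 to 157 counts per library. As shares of the H3 counts, H3C12 went from 5.28% ± 0.295 to 6.76% ± 0.0399 and H3C6 from 2.86% ± 0.559 to 1.84% ± 0.103 (SD, n = 3). H3C2, with the highest FPKM of the class, had 506, 512 and 671 FPKM in si-SCR and 639, 670 and 693 FPKM in si-CyCoNP. Its log2 fold change was 0.18 ± 0.0899 (adjusted p = 0.152, edgeR), and without replicate 3 of si-SCR it was 0.30 and passed (adjusted p = 0.00194, edgeR).

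The H4 genes encode the same protein from separate loci, and of the 11 tested only H4C9 passed, downwards, with a class median of 0.013. The class had 3 rises and 0 falls without replicate 3 of si-SCR (median 0.111), and over the other libraries left out the median ran from -0.023 to 0.074. H4C9 (chr6:27139282-27139678, +) had 94.1, 102 and 110 FPKM in si-SCR and 95.5, 92.7 and 83.1 FPKM in si-CyCoNP. The groups overlapped by 1 library, and the log2 fold change was -0.24 ± 0.0899 (adjusted p = 0.0472, edgeR). The call was lost in 11 of 17 alternatives (adjusted p 0.00386 to 0.208), among them without replicate 2 or replicate 3 of si-SCR and without any 1 of the si-CyCoNP libraries. H4C4, with the highest FPKM of the class, had 440, 436 and 623 FPKM in si-SCR and 522, 604 and 748 FPKM in si-CyCoNP. Its log2 fold change was 0.25 ± 0.118 (adjusted p = 0.118, edgeR), and without replicate 3 of si-SCR it was 0.42 and passed (adjusted p = 5.47e-05, edgeR). H4C5, with the most counts of the class, had 250, 240 and 303 FPKM in si-SCR and 263, 266 and 276 FPKM in si-CyCoNP (log2 fold change -0.045 ± 0.083; edgeR, adjusted p = 0.736).

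**Figure D4:**
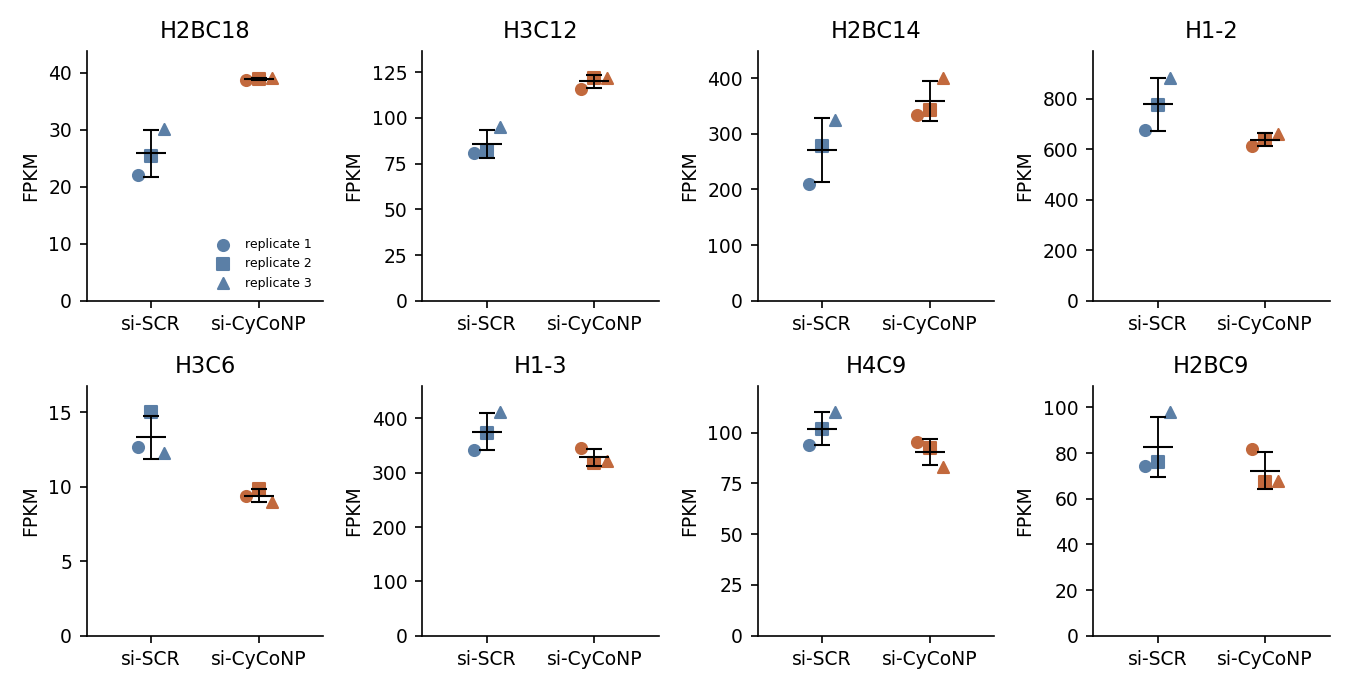
FPKM in each library of the 8 members with an adjusted p under 0.05, 1 panel per gene with its own axis from 0. Symbols mark the replicates and the black marks the mean ± SD (n = 3). The groups do not overlap for H2BC18, H3C12, H2BC14, H1-2 and H3C6, and they overlap for H1-3, H4C9 and H2BC9.

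By position, the histone cluster at chr6:25723397-26285638 had 27 tested members, of which 0 rose and 4 fell (edgeR; 6 had an unadjusted p under 0.05), with a median of -0.01. The cluster at chr6:27125897-27893891 had 20, of which 2 rose and 1 fell, with a median of 0.09. At chr1:149782689-149887965, the 5 tested members had a median of 0.054, and H2BC18 rose. Past the threshold were 14.8%, 15% and 20% of the tested members of the 3 clusters, where 28.4% of all genes passed, 14.2% higher and 14.2% lower. The difference between clusters was not tested. Without replicate 3 of si-SCR, 7 rose and 3 fell in the first cluster, and 8 rose and 0 fell in the second. In that fit 15.4% of all genes rose and 15.8% fell, and the medians of the 3 clusters were 0.088, 0.194 and 0.187. The first cluster had 2 falls without replicate 2 or replicate 3 of si-CyCoNP and a median of -0.07 without replicate 1 of si-SCR. The median of the second was then -0.009, with 1 rise and 2 falls.

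**Figure D5:**
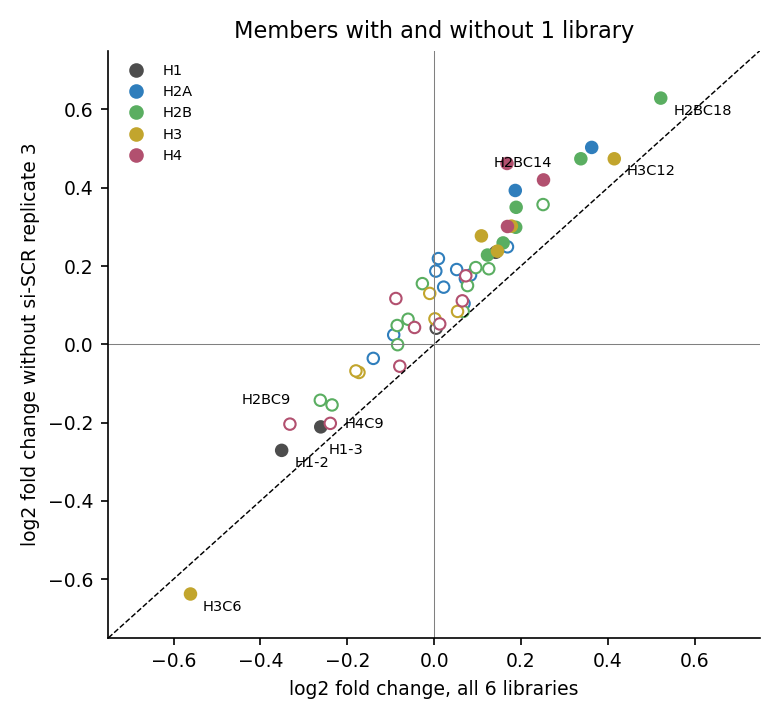
Log2 fold change of the members without replicate 3 of si-SCR (vertical) against that with all 6 libraries (horizontal), coloured by class. Points are filled where the adjusted p of the fit without that library was under 0.05, the dashed line marks equal values, and the 8 members past the threshold with all libraries are named. Most points lie above the line, and 16 members are past the threshold upwards against 3 with all libraries.

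The 13 members that were not tested held 38 of the 222568 histone counts. H2AC1, H2AC17, H3C4, H4C6 and H4C7 had 0 counts in all 6 libraries, which allows up to 3 counts per library, or 0.625 to 0.797 CPM of the library total. Another 8 had 1 to 14 counts over all libraries together. For 5 of these (H2BC12L, H3C14, H3C15, H4C14 and H4C15) 0% of the 100-base windows occur once in the genome, so that a fragment cannot be assigned to 1 of the copies. The other 8 untested members had windows that all occur once. Among these, H2AC17 shares exons with H3C12 on the same strand, and H2AC7 and H3C4 share exons with a gene that has no symbol, where reads counted for neither gene cannot be told apart from a lack of expression. H2AC1 and H2BC1, histones of male germ cells, had 0 and 1 counts in all. Of the 55 tested members, 52 had at least 100 counts per library on average, and 43 had windows that all occur once.

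Histone mRNA synthesis depends on a small set of dedicated factors. NPAT, the activator of these genes, had 7.91 ± 1.01 and 9.06 ± 1.2 FPKM (SD, n = 3, si-SCR first; edgeR, adjusted p = 0.475), and CASP8AP2, a further histone locus body protein, had 7.57 ± 1.19 and 8.07 ± 0.273 FPKM (adjusted p = 0.896, edgeR). In the transcription list, 2 of 12 genes rose, E2F3 (log2 fold change 0.44) and E2F1 (0.39), both activators of S phase genes, and CCNE2, a cyclin partner of CDK2, fell (-0.68). CCNE2 was lost without replicate 2 of si-CyCoNP and with limma (adjusted p 0.00185 to 0.105 over the alternatives). In this list 25.0% of the genes passed, where 28.4% of all genes tested did, 14.2% higher and 14.2% lower. The median of the list was 0.027, and 0.104 without replicate 3 of si-SCR.

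In the list for 3′ end processing, 6 of 16 genes rose and 1 fell (43.8%, where 28.4% of all genes passed), with a median of 0.16. DESeq2 called 3 higher and 1 lower, and 3 rose and 0 fell without replicate 2 of si-SCR or without replicate 1 or replicate 2 of si-CyCoNP. SLBP, the stem-loop binding protein, had 29.7 ± 2.84 and 31.5 ± 1.07 FPKM, a log2 fold change of 0.013 (adjusted p = 0.952, edgeR). Of the U7-specific ring proteins, LSM10 rose, with a log2 fold change of 0.53 ± 0.173 (adjusted p = 0.0208, edgeR), and LSM11 had 0.077 (adjusted p = 0.777, edgeR). LSM10 passed in 12 of 17 alternatives (adjusted p 0.00963 to 0.0954) and was lost, among others, in DESeq2 (adjusted p = 0.0731). SYMPK, the scaffold of the cleavage complex, rose by a log2 fold change of 0.56 ± 0.098 (adjusted p = 6.47e-05, edgeR), and the ring proteins SNRPE (0.41) and SNRPF (0.43), which U7 shares with spliceosomal particles, rose as well. NCBP1, a subunit of the cap-binding complex, fell (-0.26), in 10 of 17 alternatives (adjusted p 0.00646 to 0.108). Of 15 genes for translation, export and decay of these mRNAs, 3 rose and 0 fell (edgeR), with a median of -0.03: CTIF (0.48), which acts in cap-dependent translation, ERI1 (0.42), the exonuclease that trims the stem-loop, and the decapping enzyme DCP2 (0.31). DCP2 passed in 10 of 17 alternatives (adjusted p 0.00592 to 0.174) and was lost in DESeq2 (adjusted p = 0.0702) and without replicate 1 or replicate 3 of either group. CTIF was lost without replicate 2 of si-CyCoNP and ERI1 without replicate 2 of si-SCR, so that 2 genes rose in each of these fits, and 1 gene of the list fell without replicate 2 or replicate 3 of si-SCR.

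Replication-independent histone genes, which for the most part have polyadenylated mRNAs and are made outside S phase too, had values further from 0 at the extremes. Of 11 tested, 2 rose and 3 fell (45.5%, where 28.4% of all genes passed). The median was -0.01 (-0.053 without replicate 3 of si-SCR, -0.101 without replicate 1 and 0.039 without replicate 2). MACROH2A2, a variant enriched in silent chromatin, rose from 46.1 ± 0.698 to 79.6 ± 6.12 FPKM (SD, n = 3; log2 fold change 0.72, adjusted p = 6.16e-07, edgeR). H1-10, a linker histone, fell from 142 ± 16.1 to 110 ± 7.41 FPKM (-0.44, adjusted p = 0.000369, edgeR). Of the genes for the replacement variant of H3, H3-3A rose (0.30; lost without replicate 1 of si-CyCoNP) and H3-3B fell (-0.35). H2AX, which carries the stem-loop letters too, had 127 ± 12.9 and 123 ± 3.8 FPKM (adjusted p = 0.377, edgeR).

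Histone chaperones, which carry histones to and from DNA, rose in 8 of 18 tested genes and fell in 1, with a median of 0.19 (11 rose and 1 fell without replicate 3 of si-SCR, median 0.281). CABIN1, of the HIRA complex, rose by a log2 fold change of 0.64 ± 0.103 (adjusted p = 2.26e-05, edgeR) and SUPT16H, of the FACT complex, by 0.38, while ATRX, which deposits H3-3 with DAXX, fell (-0.54). Of the 40 DNA replication genes, 6 rose and 1 fell (17.5%, where 28.4% of all genes passed), with a median of 0.14. Without replicate 3 of si-SCR 17 rose and 1 fell (median 0.238), against the same 15.4% and 15.8% of all genes. Over the other libraries left out, 6 rose and 1 fell each time, with medians of 0.087 to 0.177. The genes past the threshold included RRM1 (0.56), a subunit of ribonucleotide reductase, and CDC45 (0.73), part of the replicative helicase, which rose, and DSCC1 (-0.87), of an alternative clamp loader, which fell. Of 19 tested mitosis genes, BUB1B alone passed (0.31; list median 0.047). It was lost without replicate 2 of si-SCR or replicate 3 of si-CyCoNP, where 0 rose and 1 fell (medians -0.034 and -0.033), and 3 rose without replicate 3 of si-SCR. In the list for arrest and exit from the cycle, 2 of 13 tested genes rose and 4 fell (46.2% past the threshold, median -0.092). Those that fell included BTG1 (-1.07), an antiproliferative gene, and RB1 (-0.49). CCND1, a cyclin of the G1 phase that promotes the cycle rather than arrest, fell too (-0.40). In the fit without replicate 3 of si-SCR 2 rose and 6 fell (median -0.306), and 1 rose without replicate 2 of si-SCR or replicate 3 of si-CyCoNP.

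Other RNAs without a poly(A) tail gave few values. Of 10 short structured RNAs, 6 had 0 counts in every library and 3 were tested. RN7SL1, the RNA of the signal recognition particle, fell with a log2 fold change of -0.37 ± 0.0699 (adjusted p = 0.000167, edgeR), and RNU4ATAC and RNU6ATAC had means of 8.5 and 12.2 counts per library. What the counting or the libraries contribute to the absence of the others was not tested.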

How the data were processed

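The deposited table of raw counts comes from the authors, who counted fragments per gene in STAR 2.7.7a on GRCh38 and Ensembl annotation, in which fragments with several positions are dropped, after trimming with Trimmomatic 0.39 and cutadapt 3.2 and removal of ribosomal reads with Bowtie2 2.4.2. The libraries were stranded total RNA after ribosomal depletion. The deposited FPKM table was made by the authors from the same counts: both implied 1 gene length for each of the 22586 genes counted in 2 or more libraries. Groups and replicate numbers came from the sample titles. Symbols matched 60357 of 60676 identifiers. The deposited files hold no correction for PCR duplicates, so that floors cover counting error only.

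Counts of genes with a mean of at least 1 FPKM in either group were scaled with TMM and tested in edgeR 4.0.16 (R 4.3.3; quasi-likelihood F test), with Benjamini-Hochberg adjustment across the whole set of tested genes, without a replicate block. The study's methods name DESeq2, which was run as an alternative (1.42.0). Other alternatives were 3 scalings, 3 filters, the replicate number as a block, limma 3.58.1 on log2(FPKM + 1) and log2(FPKM + 0.1), an offset for gene length and GC content, and leaving out each library. The scripts were tested on simulated counts. No library pair differed by as little as sampling noise (chi-square per degree of freedom 2.55 to 5.62).

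Named members were those past the threshold (up to 8 by p in each direction), the highest FPKM per class, the 5 highest counts and those with 0 counts. From the lists (transcription, 3′ processing, translation with export and decay, replication-independent histones, chaperones, DNA replication, mitosis, arrest and exit, short structured RNAs, and 4 sets of cell type markers), up to 3 genes were named by adjusted p, beside NPAT, SLBP, CASP8AP2, LSM10, LSM11 and ERI1. Other genes were named after their values had been seen. The values of 4 list genes are not reported here, and these genes enter only list counts, medians and sums. Members and lists were chosen with earlier results of these data known. Uniqueness was counted over 100-base windows of the GENCODE 44 canonical transcript in the whole genome.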

Additional observations from a re-analysis of the deposited data

How the results depend on the processing

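LINC02381 stayed past the threshold in each alternative. The log2 ratio of the summed level (0.09) ran from 0.007 to 0.208 and the median of the members (0.054) from -0.027 to 0.152. Both moved by less than an error drawn from the spread between libraries (0.12 and 0.101), but nearly reached it without replicate 3 of si-SCR. That error includes replicate 3 of si-SCR, so it cannot judge the fit without that library. The 42 pathway list genes past the threshold became 32 to 59, within 1.5 times. The 5 members that fell became 3 with DESeq2, 3 with upper quartile scaling, 2 with library totals alone, and 1 with limma on log2(FPKM + 1) or log2(FPKM + 0.1). Leaving out 1 library gave 2 to 16 members higher and 2 to 7 lower. The cause was not tested. The replicate number as a block gave 8 members higher and 6 lower. The labels do not say whether same-numbered libraries were made together. Their deviations correlated by 0.0908, 0.0734 and 0.11 (Pearson's r across genes, which are not independent), and each library correlated best with its own number. What same-numbered libraries share was not tested.

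Of 255 values for 15 named members, 203 kept their direction and side of the threshold, 35 fell short of it, 7 passed newly and 10 changed sign. The sign changes were in members near 0 that passed in none of these fits. H1-4 was -0.001 with DESeq2, -0.001 with DESeq2 size factors, -0.088 with the length and GC offset, and -0.046 to 0.051 when libraries were left out in turn (-0.032 without replicate 1 of si-SCR, -0.046 without replicate 3 of si-CyCoNP). H4C5 was 0.021 with library totals alone, 0.029 with either limma fit, and -0.102 to 0.043 when libraries were left out (0.043 without replicate 3 of si-SCR). H2AC13 was -0.012 without replicate 1 of si-SCR, in a range of -0.012 to 0.177 over the libraries left out. Members with no unique windows could not be measured, and the levels of members with few are understated.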

Other observations

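Many H2A and H2B genes stand back to back. By the starts of the annotated genes, 14 pairs of members lay less than 1000 bases apart on opposite strands (170 to 979 bases). Of these, 12 were of an H2A and an H2B gene, and 11 had both genes tested. In 6 of the 11 the log2 fold changes had the same sign. H2AC14 (0.19) and H2BC14 (0.34) were both above 0, while H2AC15 (0.36) and H2BC15 (-0.084), and H3C12 (0.41) and H2BC17 (-0.085), had different signs. H3C12 and H2BC17 are a pair only by the start of the whole H3C12 gene. The canonical transcript of H3C12 has 512 bases and its stem-loop lies at chr6:27890320-27890335, so its histone unit does not start beside H2BC17 (chr6:27893425-27893891). Among these genes, H2BC14 and H3C12 alone passed the threshold (edgeR, adjusted over all genes tested), and no pair was tested as such.

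The gene lengths implied by the tables were over 1000 bases for 17 tested members, longer than a histone mRNA with a stem-loop end. Of these, 4 passed the threshold (H2BC18, H2BC9, H3C6 and H4C9), where 28.4% of all genes tested passed. H2BC9 and H4C9 lost their call in 10 and 11 of 17 alternatives. The longest was H2BC15 with 5477 bases. FPKM of such rows is lowered by the length, and how many of their fragments come from outside the histone unit was not tested.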
